A study of Saccharomyces cerevisiae and Saccharomyces paradoxus with 173 samples.

Results

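The RNA levels of 5 genes were followed through the cell cycle of budding yeast: RNR1, RNR2, RNR3 and RNR4, which encode ribonucleotide reductase, and DUN1, a kinase that acts on it. They were chosen by standard gene name and matched to the identifiers YER070W, YJL026W, YIL066C, YGR180C and YDL101C. All 5 were found, with 1 row each, among the 6172 genes of the deposited table. The samples came from 10 natural strains: YPS3395, labelled Saccharomyces paradoxus, and 9 strains labelled S. cerevisiae (YPS183, YPS2055, YPS2060, YPS2066, YPS2067, YPS2073, YPS2079, YPS3060 and YPS3137). Per the labels' protocols, 1 culture of each strain was arrested in late G1 with 4 μM of the mating pheromone alpha factor for about 75 min. The culture was then washed free of pheromone, moved to minimal glucose medium at 18 °C and sampled at up to 18 times between 0 and 345 min. The labels give no further genotype. Each sample was set against 1 common reference, RNA of unsynchronised YPS183 cells grown in rich medium at 30 °C. A ratio therefore also carries differences of strain, medium and temperature between sample and reference.

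Ribonucleotide reductase turns ribonucleotides into deoxyribonucleotides and so supplies the building blocks of DNA. In budding yeast the large subunit is Rnr1 or its damage-inducible paralogue Rnr3, and the small subunit pairs Rnr2, which carries the iron cofactor, with Rnr4. RNR1 is known as a gene transcribed at the passage from G1 to S phase by the factor MBF, while RNR2, RNR3 and RNR4 are known for induction by DNA damage. Dun1 is a protein kinase of the Mec1 and Rad53 checkpoint. It relieves repression by Rfx1 (also called Crt1) and triggers the loss of Sml1, an inhibitor protein of the enzyme.

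Values are log ratios of sample over reference, read as log2, with sample medians between -0.066 and 0.039. No source used here states the logarithm's base, and the direction, sample over reference, is likely rather than certain. It rests on pheromone-induced genes, whose median log2 ratio at 0 min was between 0.01 and 2.76 in 8 strains but -0.14 in YPS2073 and -0.61 in YPS3060. With the sign turned, every higher and lower would change places. Each sample rested on 1 to 5 arrays, whose number limits the precision. In the labels, 40 samples have some arrays printed in 2005 or 2006 (called older prints here): 17 of YPS2073, 9 each of YPS3060 and YPS3137, and 5 of YPS183. In YPS3060 and YPS3137 these are every sample of 1 of 2 interleaved series of times, called set A (0, 48, 87, 135, 176, 218, 251, 284 and 325 min). The remaining times form set B. Since there was 1 culture per strain, comparisons over time use the strain as the replicate, with 1 difference per strain. The 6 markers of a cells were all measured, and the median of the list at 0 min ran from -1.35 in YPS3060 to 1.55 in YPS183. Of 4 markers of alpha cells 1 was measured, the pheromone gene MF(ALPHA)1, whose log2 ratio at 0 min lay between -0.31 and 0.58.

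RNR1 was low in arrested cells and high in the S window, the mean of the samples at 48, 63 and 87 min (48 and 63 min in YPS2067, 48 and 87 min in YPS3137). The window names stand for sampling times, and no measure of DNA content was used to set them. On fitted curves the core histone genes, which are expressed in S phase, peaked after this window, at 111 or 135 min, in every strain but YPS2073 (63 min). Their highest measured sample fell between 24 and 135 min. In the S window its log2 ratio was lowest in YPS3395 at -0.05, had a median of 0.57 and was highest in YPS2067 at 1.93. At 0 min it was lowest in YPS2055 at -2.69, had a median of -1.77 and was highest in YPS2073 at -0.11. The 10 S window values and the 10 values at 0 min did not overlap. The mean log2 ratio was 0.77 ± 0.60 in the S window and -1.499 ± 0.99 at 0 min (SD, n = 10 strains). RNR1 rose by 2.27 ± 0.35 (SE, 95% interval 1.501 to 3.04, limma adjusted p = 0.0038), in 10 of 10 strains. This was the largest rise of all 6172 genes, of which 560 (9.07%) were called in either direction, 4.8% as higher and 4.28% as lower. With the sign of the ratios turned it would be the largest fall. In bulk RNA, fewer cells in S phase and less RNA per cell cannot be told apart.

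The size of the RNR1 rise differed widely among strains. The S window exceeded 0 min by 4.22 in YPS2055 and by 4.17 in YPS2067. Strain YPS183 had a difference of 3.16, YPS2066 of 2.77, YPS2079 of 2.48 and YPS2060 of 1.77. The smallest differences were 1.33 in YPS3060, 1.25 in YPS3395, 0.93 in YPS3137 and 0.62 in YPS2073. The 3 strains with older prints at 0 min had RNR1 at -0.35 (YPS3137), -0.18 (YPS3060) and -0.11 (YPS2073). In the 7 strains with 2007 prints at 0 min, RNR1 lay between -2.69 and -1.30, with a median of -2.20. These 2 sets of strains did not overlap. The markers of pheromone response (FUS1, FIG1, AGA1 and KAR4, 4 of 4 measured) reached higher values on 2007 prints but overlapped between the 2 sets of strains. Their median log2 ratio at 0 min was between -0.61 and 0.20 on older prints and between 0.01 and 2.76 on 2007 prints. The list of a cell markers also overlapped, between -1.35 and -0.27 on older prints and between -0.50 and 1.55 on 2007 prints. The part that arrest or array print has in the low RNR1 differences was not tested. With the samples on 2007 prints alone, the RNR1 rise was 2.88 ± 0.35 (SE, n = 7 strains, limma adjusted p = 0.0018).

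**Figure D1:**
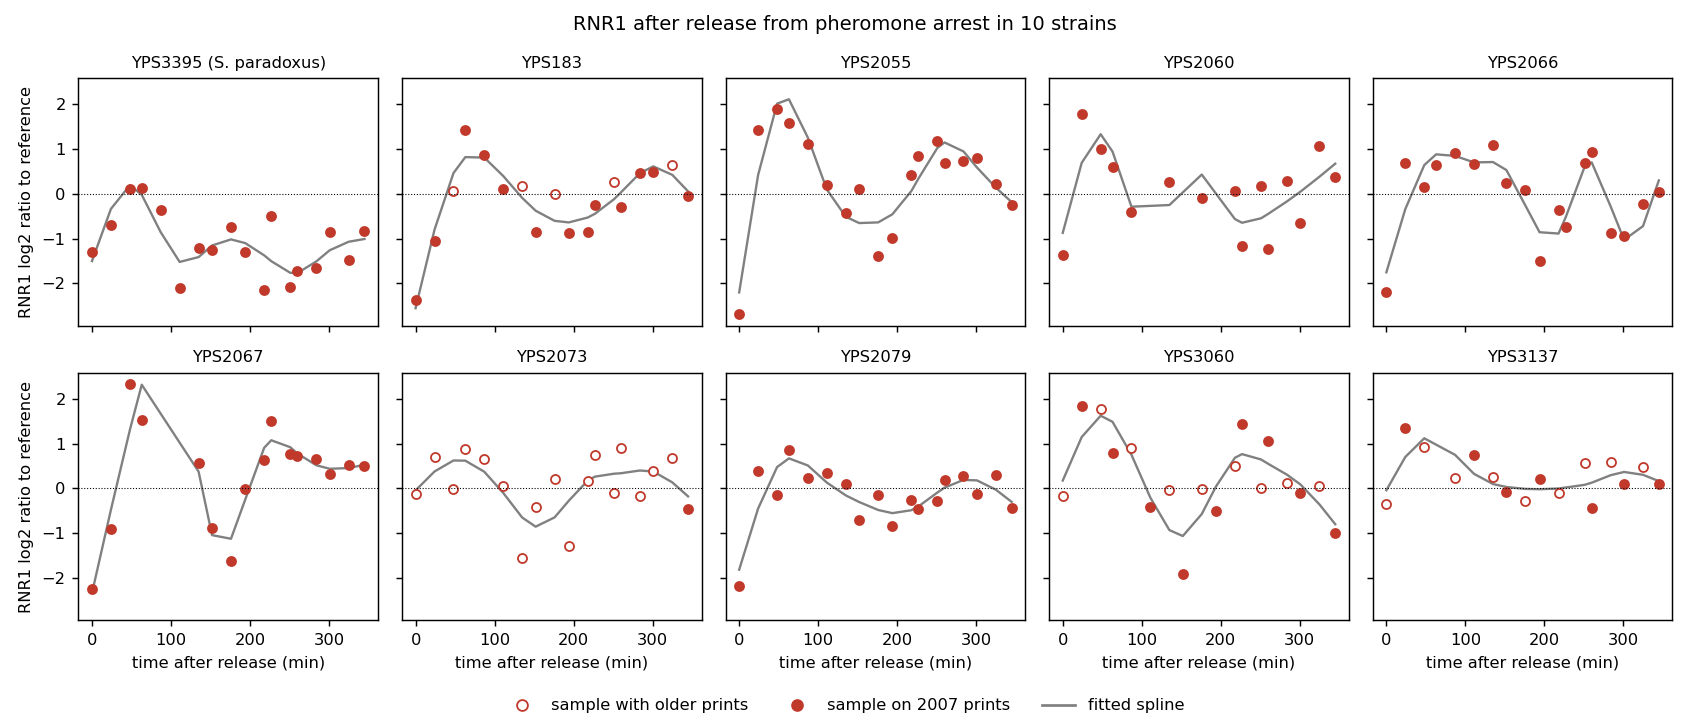
Log2 ratio of RNR1 to the reference against minutes after release, 1 panel per strain; open points are samples with older prints, filled points samples on 2007 prints, and the line is the fitted spline. In 7 strains the first sample lies between -2.69 and -1.30 and is followed by a high within 87 min; YPS2073, YPS3060 and YPS3137 start between -0.35 and -0.11.

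RNR1 fell again after the S window. In the mitotic window (176, 194 and 218 min, without 194 min in YPS2060) its log2 ratio was lowest in YPS3395 at -1.39, had a median of -0.37 and was highest, at -0.003, in YPS3060. The mean was -0.43 ± 0.41 in the mitotic window and 0.77 ± 0.60 in the S window (SD, n = 10 strains). The difference was -1.21 ± 0.17 (SE, limma adjusted p = 0.022), lower in 10 of 10 strains, although the 2 sets of values overlapped. Of the 6172 genes 1 had a more negative difference. Of all genes, 84 (1.36%) were called in either direction and 0.664% as lower, and the count lay between 1 and 286 when 1 strain was left out. The call was lost, at adjusted p between 0.056 and 0.059, when YPS183, YPS2055, YPS2066 or YPS2079 was left out. The difference itself then stayed between -1.26 and -1.10.

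A second high of RNR1 was visible in single strains but did not pass the test over strains. In the second entry window (251, 260 and 284 min) RNR1 averaged 0.08 ± 0.74, against -0.43 ± 0.41 in the mitotic window (SD, n = 10 strains). The difference was 0.51 ± 0.15 (SE, limma adjusted p = 0.48), higher in 8 of 10 strains and lower in YPS2060 and YPS3395. It ranked 9 among all genes by size. In the latest window (325 and 345 min) RNR1 averaged 0.01 ± 0.53, a difference from the mitotic window of 0.45 ± 0.11 (SE, adjusted p = 0.52), higher in 9 of 10 strains. No gene was called by limma in either comparison (0% each), with 444 and 312 genes at an unadjusted p under 0.05.

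The measured highs and lows of RNR1 fell at different times in different strains. These samples were picked by their values, so they are a description with no test. YPS2055 had a first high of 1.90 at 48 min, a low of -1.39 at 176 min and a second high of 1.18 at 251 min. YPS2067 went through 2.32 at 48 min, -1.62 at 176 min and 1.5 at 227 min. In both strains the second high stood well above the low and below the first high. YPS3060 had 1.83 at 24 min, -1.91 at 152 min and 1.43 at 227 min, all on 2007 prints. Its samples with older prints from 135 to 325 min lay between -0.03 (135 min) and 0.50 (218 min), without such a swing. YPS2079, with a smaller swing, had 0.86 at 63 min, -0.84 at 194 min and 0.30 at 325 min. YPS3395 had 0.13 at 63 min, -2.14 at 218 min and -0.51 at 227 min, and was at -2.08 at 251 min. Its level was not low at every time. At 0 min its -1.30 was the highest of the strains with 2007 prints at 0 min. At 48 min its 0.10 was above YPS183 (0.07), YPS2073 (-0.005) and YPS2079 (-0.14) and below the other strains. Over the 10 strains the first high (up to 111 min) fell between 24 and 87 min and the second (from 218 min) between 227 and 325 min. The time between them was 164 min (YPS3395) to 301 min (YPS2060), with a median of 203 min. In these 2 strains the low between the highs, at 218 and 260 min, was a sample on 1 array. With single samples, whose SD about the fitted curves was 0.59 for RNR1, timing of a strain and scatter of samples cannot be told apart. The second high was below the first in 8 strains and above it by 0.02 in YPS2066 and 0.04 in YPS2073. In YPS2066 a sample of 1.08 at 135 min, past the limit of 111 min for a first high, was above both.

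Setting every time against 0 min gave the profile of each gene. RNR1 averaged 0.55 ± 1.10 at 24 min (SD, n = 10 strains). That was 2.05 ± 0.30 above 0 min (SE, limma adjusted p = 0.0057). The largest mean change was at 63 min, 2.57 ± 0.36 (SE, n = 9 strains, adjusted p = 0.0038), higher in 9 of 9 strains. At 194 min the change had shrunk to 0.73 ± 0.31 (SE, n = 9, limma adjusted p = 0.22), and at 227 min it was 1.78 ± 0.34 (SE, n = 9, limma adjusted p = 0.0088). In all, RNR1 was called at 10 of 17 times: 24, 48, 63, 87, 227, 251, 260, 284, 301 and 325 min. It was not called between 111 and 218 min or at 345 min, though 176 min (adjusted p = 0.0509) and 345 min (adjusted p = 0.0506) came close. These gaps depend on the strains with older prints at 0 min: without YPS2073, YPS3060 and YPS3137, RNR1 was called at 16 of 17 times. At these times and at 111, 152 and 345 min, where DUN1 was called, the share of all genes called was as follows. It was 4.16% at 24 min, 3.82% at 48 min, 7.32% at 63 min, 3.99% at 87 min, 6.58% at 111 min and 6.08% at 152 min. Later it was 8.9% at 227 min, 4.8% at 251 min, 11.5% at 260 min, 2.62% at 284 min, 6.98% at 301 min, 0.956% at 325 min and 5.31% at 345 min. DUN1 was called at 8 times and RNR3 at 1 time. RNR2 and RNR4 were called by limma at 0 times, with 0 and 1 times at an unadjusted p under 0.05. All 17 comparisons share the same 0 min samples, so these counts are not independent of each other.

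**Figure D2:**
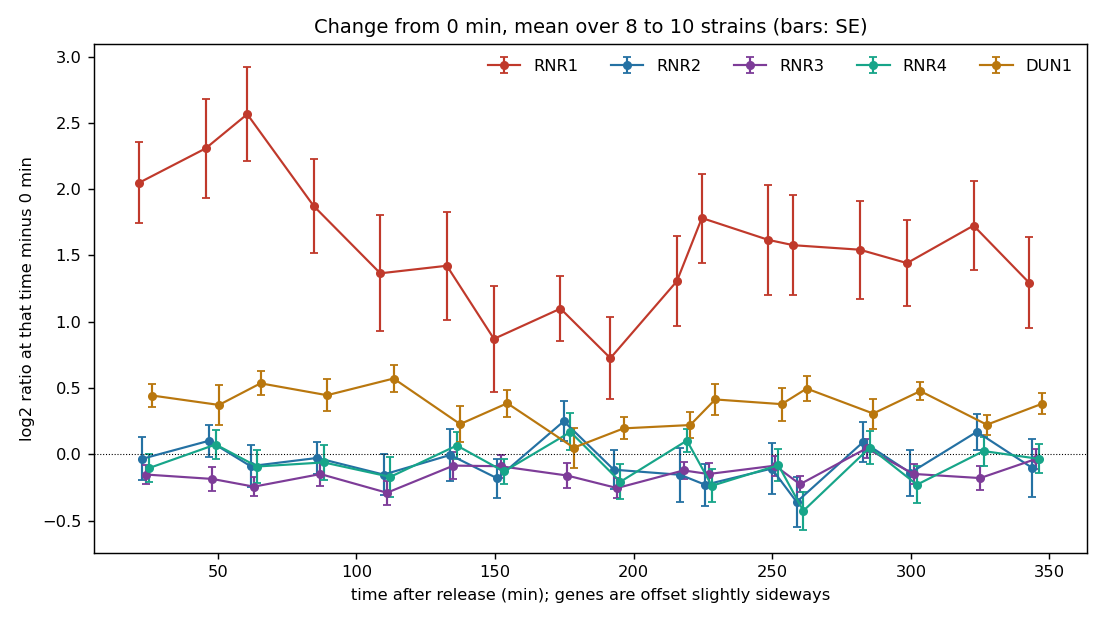
Mean log2 ratio at each time minus 0 min (vertical axis, log2 units) against minutes after release, for the 5 genes; bars are SE over 8 to 10 strains. RNR1 peaks at 2.57 at 63 min, has its lowest value of 0.73 at 194 min and stands at 1.78 at 227 min, DUN1 lies between 0.05 and 0.57, and RNR2, RNR3 and RNR4 lie around 0.

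Time courses within a strain were tested with a spline of time, whose error is the scatter of time points about the curve and not the spread between cultures. A call asked for an adjusted p under 0.05 and a fitted range of at least 1. RNR1 was called in 5 of 10 strains, and 17 genes (0.275%) were called in at least 5 strains. Its fitted range was 4.65 in YPS2067 (limma adjusted p = 3.81e-05) and 4.31 in YPS2055 (adjusted p = 5.49e-05). YPS183 had a fitted range of 3.37 (adjusted p = 0.013), YPS3060 of 2.68 (adjusted p = 0.027) and YPS2066 of 2.63 (adjusted p = 0.0065). The share of all genes called was 8.3% for YPS2067, 3.45% for YPS2055 and 3.05% for YPS183. For YPS3060 it was 1.33% and for YPS2066 6.84%. The other 5 strains had RNR1 ranges of 2.48 (YPS2079), 2.20 (YPS2060), 1.96 (YPS3395), 1.48 (YPS2073) and 1.16 (YPS3137), none of which passed. Of all genes, the share called was 0.518% in YPS2079, 0.146% in YPS2060, 5.12% in YPS3395, 5.9% in YPS2073 and 1.56% in YPS3137. The fitted peak of RNR1 was at 63 min in YPS183, YPS2055, YPS2066, YPS2067 and YPS2079, and at 48 min in the other 5 strains. These are adjacent sampling times. A fitted peak could fall only at a time sampled in that strain, and YPS3137 has no sample at 63 min.

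RNR3, the damage-inducible large subunit, varied little. Over all samples its log2 ratio lay between -0.76 and 0.52, with a median of 0.01. In the S window it averaged -0.04 ± 0.11, against 0.14 ± 0.15 at 0 min (SD, n = 10 strains). It was lower in 8 of 10 strains, by -0.19 ± 0.06 on average (SE, 95% interval -0.33 to -0.05, limma adjusted p = 0.093). It was lower at every later time but 284 min, where the difference was 0.05. At 260 min RNR3 fell by 0.23 ± 0.06 (SE, adjusted p = 0.033), in 10 of 10 strains, the only time at which it was called. The fitted range within a strain was 0.27 to 0.58, under the size asked for, and the lowest adjusted p was 0.81. RNR3 did not follow its paralogue: across all samples, with each strain's mean removed, the correlation of RNR1 and RNR3 was -0.07. Whether the array spot of one paralogue also binds RNA of the other was not tested.

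RNR2, a small subunit gene, showed no common change over the cycle. In the S window its log2 ratio was lowest in YPS2060 at -0.96, had a median of -0.68 and was highest in YPS183 at 0.31. At 0 min it was lowest in YPS2055 at -1.34, had a median of -0.47 and was highest in YPS2079 at -0.11. The 2 sets of values overlapped, and 5 strains were higher in the S window while 5 were lower. The mean difference was -0.01 ± 0.11 (SE, limma adjusted p = 0.98). Its 95% interval of -0.25 to 0.24 leaves out a change as large as that of RNR1. RNR2 varied over time in 1 strain, YPS3395, where the fitted range was 1.68 (adjusted p = 0.0035). There the measured log2 ratio was 0.57 at 176 min, -0.66 at 194 min and -2.13 at 218 min, the last a sample on 1 array. It was -0.66 at 227 min, -1.75 at 251 min and -0.09 at 345 min, so successive samples did not fall and recover smoothly. Of all genes, 5.12% varied by this rule in YPS3395. The RNR2 difference of mitotic window minus S window did not differ between the species by the test: YPS3395 minus the 9 S. cerevisiae strains gave -0.73 ± 0.17 (SE, limma adjusted p = 0.15), where 0.081% of all genes were called.

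RNR4, the partner of RNR2, had a similar lack of common change. In the S window it was lowest in YPS2073 at -1.35, had a median of -0.99 and was highest in YPS183 at -0.14. At 0 min it was lowest in YPS2073 at -1.29, had a median of -0.85 and was highest in YPS3395 at -0.38. These 2 sets overlapped, and RNR4 was higher in the S window in 3 of 10 strains. The mean difference was -0.03 ± 0.10 (SE, 95% interval -0.23 to 0.18, limma adjusted p = 0.91). The lowest point of the mean profile was 260 min, at -0.43 ± 0.14 relative to 0 min (SE, n = 10, limma adjusted p = 0.071). No strain had a time course that passed, with fitted ranges of 0.38 to 1.07 and a lowest adjusted p of 0.54.

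**Figure D3:**
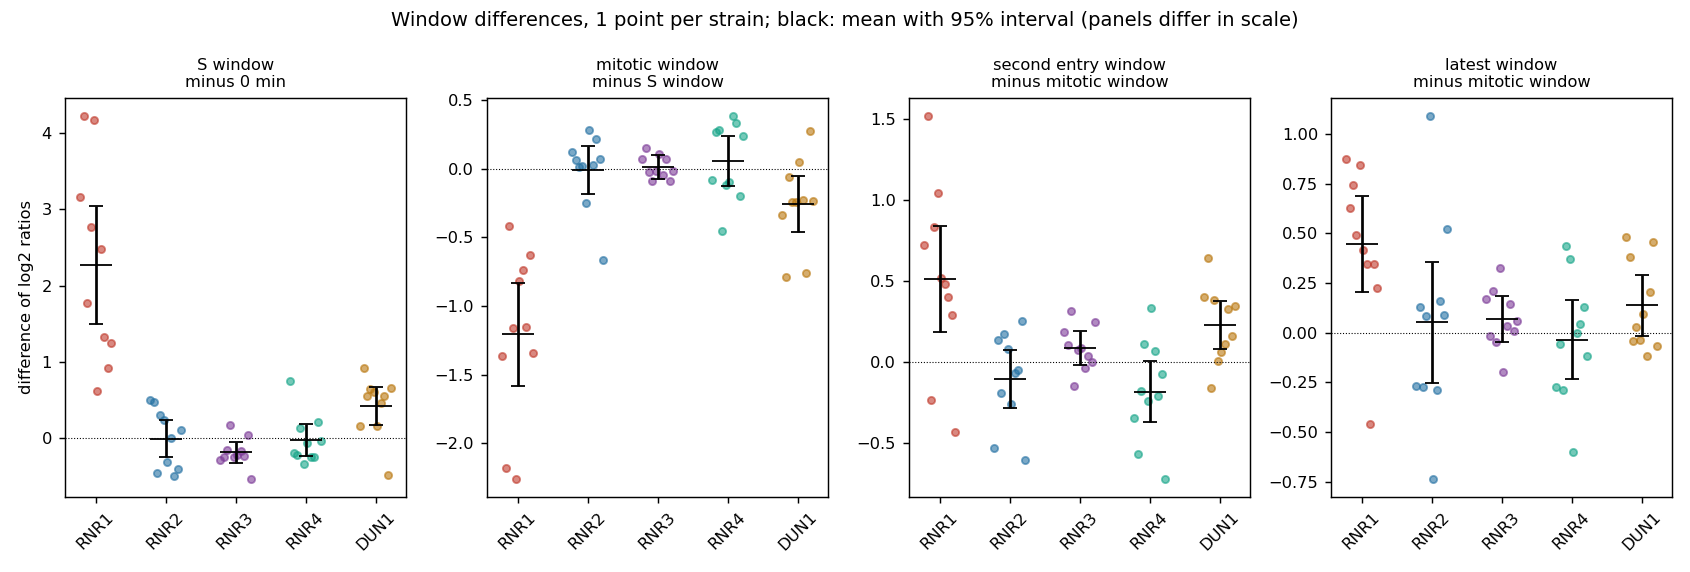
Differences of log2 ratios between time windows for the 5 genes, 1 coloured point per strain, in 4 panels with their own scales; the black line and bar are the mean over 10 strains and its 95% interval. RNR1 is above 0 in every strain in the first panel and below 0 in every strain in the second, while the intervals of RNR2 and RNR4 span 0 in all 4 panels.

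The likeness of the small subunit genes differed among strains. With strain means removed, RNR2 and RNR4 correlated at 0.50 over all samples, which share arrays, hybridisation and RNA for both genes. RNR4 ranked 11 among all genes by its likeness to RNR2. Within strains the correlation ran from -0.0002 in YPS3137 to 0.90 in YPS3060 and 0.80 in YPS2073. In YPS3060 RNR4 was 0.94 ± 0.12 higher in set A than in set B (SE, limma adjusted p = 1.40e-09), and RNR2 was 0.65 ± 0.15 higher (adjusted p = 0.00034). Its set A samples are those with older prints. In YPS2073 RNR2 was 0.87 ± 0.15 higher in set A (adjusted p = 9.90e-06) and RNR4 0.56 ± 0.12 higher (adjusted p = 0.00038). In that strain 17 of 18 samples have older prints. Those with an array printed in 2005 (0, 48, 176, 218, 251 and 284 min) all belong to set A. RNR2 was also 0.59 ± 0.15 higher in set A in YPS2079 (adjusted p = 0.0085), a strain with 2007 prints throughout. Of all genes, 39.1% differed between the sets in YPS3060, 22.7% in YPS2073 and 6.45% in YPS2079. The part of array print in these differences was not tested.

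DUN1, the kinase, rose by a small amount after release. In the S window its log2 ratio was lowest in YPS3137 at -0.66, had a median of 0.32 and was highest in YPS2055 at 0.73. At 0 min it was lowest in YPS3395 at -0.36, had a median of -0.18 and was highest in YPS2079 at 0.05. The sets overlap only through the S window of YPS3137. The mean was 0.28 ± 0.38 in the S window and -0.14 ± 0.15 at 0 min (SD, n = 10 strains). DUN1 rose by 0.42 ± 0.11 (SE, 95% interval 0.18 to 0.67, limma adjusted p = 0.038), in 9 of 10 strains. It ranked 174 among all genes by size. The call rests on the full set of strains: it was kept without YPS183, YPS2073 or YPS3137, and lost, at adjusted p between 0.071 and 0.087, when any 1 of the other 7 was left out. On 2007 prints alone the rise was 0.60 ± 0.07 (SE, n = 7 strains, limma adjusted p = 0.0017).

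Later in the cycle DUN1 had the same order of window means as RNR1, at a smaller size. In the mitotic window it averaged 0.02 ± 0.29, against 0.28 ± 0.38 in the S window (SD, n = 10 strains). The difference was -0.26 ± 0.09 (SE, adjusted p = 0.16), lower in 8 of 10 strains. On 2007 prints alone it was -0.35 ± 0.09 (SE, n = 7 strains, limma adjusted p = 0.038). In the second entry window DUN1 was 0.23 ± 0.07 above the mitotic window (SE, adjusted p = 0.48), higher in 9 of 10 strains. Relative to 0 min it was called at 24, 63, 111, 152, 227, 260, 301 and 345 min, with a largest mean change of 0.57 ± 0.10 at 111 min (SE, n = 8, limma adjusted p = 0.013). All 8 of these times belong to set B. In YPS3060 and YPS3137 each such difference therefore sets a sample on 2007 prints against a 0 min sample with older prints. The fitted range within a strain was 0.32 to 0.96, so that no strain reached the size asked for a call, and the lowest adjusted p was 0.49. With a term for the sampling sets the limma adjusted p was 0.0045 in YPS2055, 0.024 in YPS2066 and 0.013 in YPS3060. No other strain passed the adjusted p with that term, and every fitted range stayed under 1. The correlation of DUN1 with RNR1, strain means removed, was 0.38 over all samples. Within strains it ran from -0.12 in YPS3395 to 0.87 in YPS2055.

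The level of DUN1 jumped between successive samples in 2 strains. In YPS3137 the 9 samples with older prints lay between -0.86 and -0.18, and the 7 on 2007 prints lay between 0.11 and 0.63. The 2 groups of samples did not overlap, and set A was 1.01 ± 0.11 lower than set B (SE, limma adjusted p = 2.69e-13), in a strain where 41.9% of all genes differed between the sets. In YPS3060 DUN1 lay between -0.77 and 0.16 on older prints and between -0.07 and 0.87 on 2007 prints. There set A was 0.66 ± 0.10 lower (adjusted p = 6.73e-08). In YPS183 the 5 samples with older prints had DUN1 between -0.82 and 0.26, and the 13 on 2007 prints between 0.01 and 0.48. RNR3 was 0.31 ± 0.11 higher in set A in YPS3137 (adjusted p = 0.016), while RNR1 differed by adjusted p between the sets in no strain. The one DUN1 difference below 0 in the S window, -0.48 in YPS3137, joins samples that all have some older prints. They are not matched by print: the 0 min sample has 2 arrays of 2006 and 2 of 2007. The samples at 48 and 87 min have arrays of 2006 alone.

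**Figure D4:**
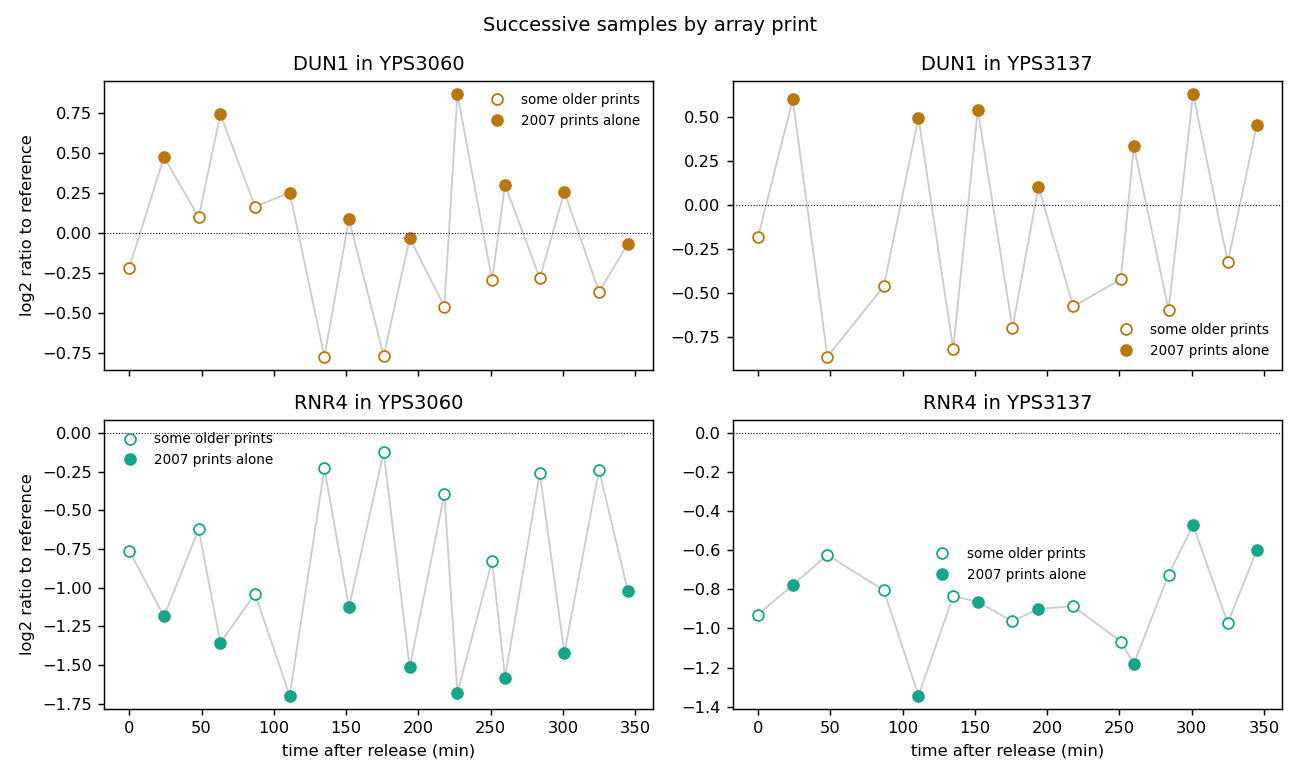
Log2 ratios of DUN1 (top) and RNR4 (bottom) against minutes after release in YPS3060 (left) and YPS3137 (right); open points are samples with older prints, filled points samples on 2007 prints, joined in order of time. DUN1 is lower on older prints, without overlap in YPS3137 (-0.86 to -0.18 against 0.11 to 0.63), and RNR4 in YPS3060 is higher on older prints (-1.04 to -0.12 against -1.70 to -1.02).

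RNR1 had a lower mean over time in the S. paradoxus strain than in any S. cerevisiae strain, though not a lower value at every time. Its mean log2 ratio over the 12 times sampled in all strains was -1.22 in YPS3395, against 0.08 ± 0.20 in the 9 S. cerevisiae strains (SD), which lay between -0.21 and 0.34. The difference of YPS3395 minus S. cerevisiae was -1.30 ± 0.20 (SE, limma on 1 mean per strain, adjusted p = 0.011). Of all genes 150 (2.43%) were called in this comparison, and 1.49% as lower. The S. paradoxus group has 1 strain and 1 culture, so its own spread was not measured. The reference and the strain that gave it are S. cerevisiae, and whether S. paradoxus RNA binds the RNR1 spot as well was not tested. The rise of RNR1 into the S window was 1.25 in YPS3395, a difference from the other strains of -1.13 ± 1.19 (SE, limma adjusted p = 0.89), where limma called 0 genes (0%) and 498 had an unadjusted p under 0.05.

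The other 4 genes did not pass this test between species. RNR4 had a mean of -0.44 in YPS3395, against -0.90 ± 0.28 in the S. cerevisiae strains (SD, n = 9), a difference of 0.46 ± 0.27 (SE, limma adjusted p = 0.49). RNR2 averaged -0.54 in YPS3395 and -0.53 ± 0.38 in S. cerevisiae. RNR3 averaged 0.10 in YPS3395 and 0.03 ± 0.08 in S. cerevisiae, and DUN1 0.18 in YPS3395 and 0.15 ± 0.22 in S. cerevisiae.

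Among the S. cerevisiae strains the small subunit genes had the largest SD of level among the 5 genes. RNR2 was highest in YPS183, the strain of the reference, at 0.14, followed by YPS2079 (-0.20), YPS3060 (-0.30), YPS2066 (-0.34), YPS2067 (-0.65), YPS2055 (-0.78), YPS2073 (-0.84), YPS3137 (-0.85) and YPS2060 (-1.004). In the spline model YPS183 was 0.73 ± 0.11 above the average of the remaining S. cerevisiae strains (SE, adjusted p = 9.48e-08) and YPS2079 0.34 ± 0.11 above it (adjusted p = 0.037). YPS2060 was lower, at -0.51 ± 0.12 (limma adjusted p = 0.0036), and so was YPS2073, at -0.41 ± 0.11 (limma adjusted p = 0.0026). Under quantile normalization the YPS2073 difference no longer passed the adjusted p (-0.26, limma adjusted p = 0.054). The other 6 strains, YPS3395 among them, did not pass. In YPS183 RNR2 lay between 0.06 and 0.96 on older prints (n = 5 samples) and between -0.23 and 0.38 on 2007 prints (n = 13). On 2007 prints alone its level was 0.57 ± 0.10 above the average (SE, limma adjusted p = 4.95e-06). Among the S. cerevisiae strains RNR4 was highest in YPS183 at -0.46 and lowest in YPS2073 at -1.496, with 7 strains between -1.03 and -0.72. It was 0.52 ± 0.10 above the others in YPS183 (adjusted p = 9.28e-06) and in YPS2073 the difference was -0.70 ± 0.10 (adjusted p = 4.75e-09). Quantile normalization moved these RNR4 differences to 0.26 in YPS183 (adjusted p = 0.035) and -0.46 in YPS2073 (adjusted p = 0.00019). YPS3395 was 0.40 ± 0.10 above the S. cerevisiae mean for RNR4 in this model (adjusted p = 0.00042), which takes time points and not strains as its error. DUN1 passed in YPS3137 alone, at -0.29 ± 0.09 (adjusted p = 0.0093). In that strain 9 of 16 samples have older prints, on which DUN1 was lower, and the part of array print was not tested. RNR3 passed in none.

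Only RNR1 in YPS3395, at -1.20 ± 0.16 (SE, limma adjusted p = 1.22e-09), also reached the size of 1 asked for a call of level in the spline model. By that rule 3.81% of all genes were called in YPS3395, 3.32% in YPS183, 3.27% in YPS2073, 1.83% in YPS3137, 0.68% in YPS2079 and 0.0972% in YPS2060. By adjusted p alone the shares were 39.6% in YPS3395, 31.6% in YPS183, 32.9% in YPS2073, 32.7% in YPS3137, 11.8% in YPS2079 and 6.24% in YPS2060.

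**Figure D5:**
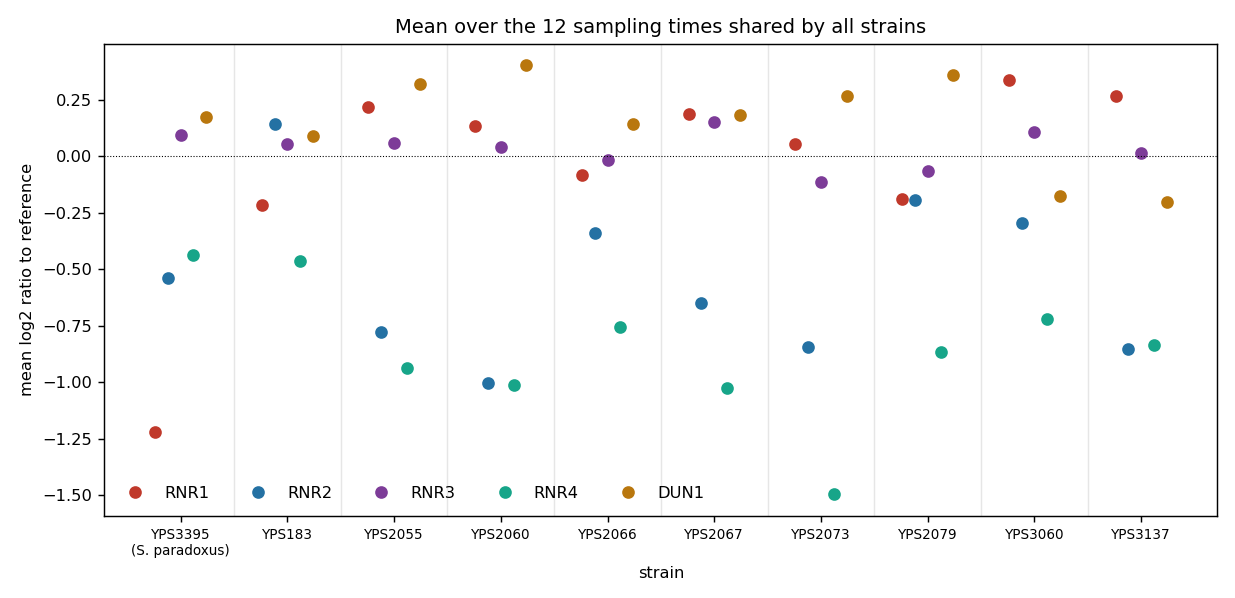
Mean log2 ratio to the reference over the 12 shared times (vertical axis) for each strain, YPS3395 at the left, with 1 colour per gene; levels of different genes cannot be set against each other, only strains within a gene. RNR1 lies at -1.22 in YPS3395 and between -0.21 and 0.34 in the other 9 strains, RNR2 and RNR4 are highest among S. cerevisiae in YPS183, and RNR4 is lowest in YPS2073 at -1.496.

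The order of the first peaks was taken from the fitted curves between 0 and 194 min. The mean of the 8 core histone genes, which are expressed in S phase, peaked 60.3 ± 19.7 min after RNR1 (SD, n = 10 strains), later in 10 of 10 strains. An exact two-sided sign-flip permutation test gave p = 0.00195, the smallest that 10 strains allow, and 0.0098 after adjustment over 5 comparisons. Where the highest measured sample stood for the peak, the histones came 31.8 ± 48.8 min later (SD, adjusted exact p = 0.21), so the call depends on the smoothing. Missing samples also limit the peak times: YPS2060 and YPS2067, with fitted histone peaks at 135 min, have no sample at 111 min. DUN1 peaked with RNR1 in 5 strains, later in 4 and earlier in 1, although its curve passed the test of variation in no strain; it was on average 7.8 ± 27.4 min later (SD, adjusted exact p = 0.46). RNR2 (33.5 ± 77.2 min), RNR4 (43.7 ± 80.2 min) and RNR3 (-15.7 ± 64.6 min) gave adjusted exact p of 0.33, 0.29 and 0.46, and their peaks in most strains belong to curves that did not pass the test of variation.

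The rest of the pathway was read from 8 gene lists in the S window comparison, where the median difference of all genes was -0.02. In it 4.8% of all genes were called as higher and 4.28% as lower. Of 8 genes of deoxynucleotide synthesis, 2 rose and none fell, with a list median of 0.14. CDC21, thymidylate synthase, averaged 0.16 ± 0.24 in the S window and -0.56 ± 0.32 at 0 min (SD, n = 10 strains), a rise of 0.73 ± 0.10 (SE, limma adjusted p = 0.0036). DUT1, which hydrolyses dUTP, rose by 0.49 ± 0.12 (adjusted p = 0.023). Among 10 genes that feed electrons to the enzyme or load its cofactor, TAH18 of the cofactor pathway rose by 0.25 ± 0.06 (adjusted p = 0.018). In the same list GRX1, a glutaredoxin, fell by 0.41 ± 0.09 (adjusted p = 0.020), and the list median was 0.07.

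The known regulators of the enzyme included no called gene in the S window. Limma called 0 of the 9 measured genes of that list, and the list median was 0.03. In it 2 genes had an unadjusted p under 0.05, where 24.1% of all genes did. SML1, the protein inhibitor, differed by -0.05 ± 0.11 (SE, adjusted p = 0.85). HUG1, another small inhibitor and a damage-induced gene, differed by -0.21 ± 0.11 (adjusted p = 0.27). RFX1, the repressor, differed by 0.09 ± 0.06 (adjusted p = 0.41). The largest difference of the list, chosen after its values were seen, was that of WTM1, which keeps the small subunit in the nucleus, at -0.53 ± 0.16 (adjusted p = 0.067), lower in 8 of 10 strains. In the checkpoint list 0 of 12 genes were called by limma, at a median of 0.10. Of the 12, 3 had an unadjusted p under 0.05, against 24.1% of all genes. The kinase RAD53 differed by 0.13 ± 0.06 (adjusted p = 0.22). In a list of damage-inducible genes the stress gene DDR48 fell by 1.24 ± 0.33 (adjusted p = 0.035).

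Many genes of DNA replication and all core histone genes rose in the S window. Of 17 measured replication fork genes 11 rose and none fell, with a list median of 0.36. Of all genes, 4.8% were called as higher and 4.28% as lower. POL30, the sliding clamp, rose by 1.15 ± 0.14 (SE, limma adjusted p = 0.0022) and RFA2, of the single-strand binding complex, by 0.98 ± 0.15 (adjusted p = 0.0036). POL2 rose by 0.64 ± 0.11 and POL1 by 0.62 ± 0.12, both catalytic subunits of replicative polymerases, and the ligase CDC9 rose by 0.59 ± 0.09. All 8 core histone genes rose, by 1.03 (HHT1) to 1.77 (HHF1), with a median of 1.60. Among 9 regulators of the G1 to S transition, the cyclin CLN2 rose by 0.91 ± 0.21 (adjusted p = 0.020), and the list median was 0.10. In the mitotic window, relative to the S window, POL30 fell by 0.82 ± 0.13 (limma adjusted p = 0.022). RAD27, a flap nuclease, fell by 0.35 ± 0.07 (limma adjusted p = 0.037). These were 2 of the 17 replication fork genes, where 0.664% of all genes were called as lower and 0.697% as higher. Of the damage-inducible list the photolyase PHR1 rose by 0.28 ± 0.06 there (adjusted p = 0.036). Limma called 0 of the 8 histone genes in that comparison, at a median of -0.61, with 7 at an unadjusted p under 0.05, against 19.8% of all genes.

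The genes most like each member were found by Pearson correlation over all samples with strain means removed, as a description. Samples share arrays and reference for all genes. For RNR1 they were RDH54 (0.77), a recombination translocase, PDS5 (0.75), a cohesin-associated factor, PCL1 (0.75), a G1 cyclin, CDC9 (0.75) and CDC21 (0.74). For DUN1 they were CDC45 (0.67), a part of the replicative helicase, ERG8 (0.62), SMC3 (0.61), a cohesin subunit, RBH2 (0.59) and MNN1 (0.59). RNR2 was closest to SAC6 (0.60), PDA1 (0.58), PRC1 (0.57), SUN4 (0.55) and DUG1 (0.55). RNR4 was closest to ASP3-4 (0.63), VTC1 (0.61), COS8 (0.61), COS2 (0.61) and YHB1 (0.61), of which ASP3-4 and the COS genes have near-identical copies that a probe may not tell apart. RNR3 had no close match, with ABP1 at 0.41, SOM1 at 0.40, YGR273C at 0.40, SPC25 at 0.39 and YAL045C at 0.39.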

How the data were processed

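The log2 values used here were deposited by the authors as 1 column of log ratios per sample, made from 2-colour spotted arrays with dye swaps combined, per the labels. The labels name 377 arrays, with 8 samples on 1 array, 132 on 2 and 33 on more. The normalization method and the base of the logarithm are not given in the sources used here. A further 7 columns matched no sample and were not used. No value was missing.

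Samples were grouped by strain. Tests used limma 3.58.1 in R 4.3.3 over all 6172 genes with Benjamini-Hochberg adjustment at 0.05: 1 difference per strain for windows and times, and 1 model with strain-specific natural splines of 7 degrees of freedom for time courses, levels and sampling sets. Python 3.11.15 with pandas 2.3.3 did the rest. The scripts were tested on simulated data, where 97% of 67 genes with a change of 1 in the S window were recovered, and 74.6% at 0.5. The time course rule, tried in YPS2055, recovered 56.7% at a change of 1 and 4.5% at 0.5. The species test on strain means recovered 68.7% at 1 and 19.4% at 0.5. In these 2 tests the lack of a call is therefore weak evidence of no change. The simulated S window change had the same size in every strain, so its recovery can be too high for changes that differ among strains. The later windows were not simulated, and the lack of a call there is not strong evidence either. Gene lists, windows, tests and the rule for named genes (the members, the 5 genes most like each, up to 5 called genes per list, and CDC21, SML1, HUG1, RFX1 and RAD53) were chosen with earlier results of these data known. WTM1, RAD27, PHR1 and the value of POL30 in the mitotic window were named after their values were seen. Part of the damage-inducible list is not reported here. CRT10 and RFA3, of 2 of the lists, were not analysed here. RefSeq names of assembly R64 matched 5554 identifiers directly and 192 after a hyphen was restored. Alternatives were quantile normalization, other splines and strain or sample subsets. The samples on 2007 prints alone in the window tests and the species term on windows were chosen after seeing the data.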

Additional observations from a re-analysis of the deposited data

Results flagged for a closer look

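In 35 sets of 10 strain values for the 5 genes, 4 had an extreme strain whose gap to the next exceeded Dixon's critical value for 10 values; chance flags about 5% of such sets. The mean RNR1 log2 ratio of YPS3395 over the shared times, -1.22, was the lowest, and the next strain was at -0.21. For RNR1 in the latest window minus the mitotic window, YPS3060 was lowest at -0.46, with the next strain at 0.23. RNR3 at 0 min was highest in YPS3395 at 0.48, with the next strain at 0.21. RNR4 in the S window minus 0 min was highest in YPS183 at 0.74, with the next strain at 0.21.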

How the results depend on the processing

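Of the values set beside their alternatives, 404 kept direction and side of the threshold or stayed within their margin, 32 moved past it, 13 no longer passed, 1 newly passed and 0 reversed. The rise of DUN1 into the S window was 0.40 without YPS3395 and no longer passed, and ran from 0.37 to 0.52 when each strain was left out. RNR1 in the mitotic window minus the S window ran from -1.29 to -1.09. Genes called in the S window ran from 316 (YPS2060 left out) to 799, with 318 without YPS2055 and 338 without YPS2079. In the mitotic window they ran from 1 (without YPS2055 or YPS2079) to 286 (without YPS3137), with 2 without YPS183, 5 without YPS2060, 4 without YPS2066, 29 without YPS2067 and 202 without YPS3060. In the latest window they ran from 0 to 2 (without YPS2060 or YPS2067). Without YPS2073, YPS3060 and YPS3137, 482 genes were called in the mitotic window and RNR1 passed at 16 times, not 10. On 2007 prints alone the mitotic count was 565, DUN1 there passed at -0.35, and 1 gene was called in the second entry window. RNR3 passed at 0 times under quantile normalization and without those 3 strains. Under quantile normalization the time course of RNR1 passed in 3 strains and of RNR4 in 1 (YPS183), and the level passed the adjusted p for RNR1 in 2 strains and DUN1 in 0. The RNR2 level of YPS2073 no longer passed (-0.26), and the RNR4 levels shrank to 0.26 in YPS183 and -0.46 in YPS2073. RNR2 passed in 2 strains (YPS2067 and YPS3395) with a term for the sampling sets and on 2007 prints alone, and DUN1 levels passed in 4 strains with the term and in 0 on those prints. The histone peak came 31.8 min after RNR1 by the highest measured sample. Of the 5 genes most like each member, 3 for RNR1, 0 for RNR3 and 2 for RNR4 were kept with Spearman's measure, and 3 for RNR1 and 2 for RNR2 in S. cerevisiae alone. The causes were not tested. No paired analysis was possible because the labels carry no replicate numbers, apart from the pairing by strain that the window and time tests already use. Array number limits the precision, and signal over background was not analysed.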
